A study of Hydra vulgaris with 99 samples.

Results

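The loci described here are 44 of the 25879 loci of a Hydra vulgaris transcript set, and they are those in which one transcript sequence gained or lost a large part of the locus reads as cut tissue regenerated. A locus is a group of sequences that share the locus token of their identifiers. The share of a sequence is the percentage of the reads of its locus, in one library, that were counted on that sequence. Of all loci, 13827 held 2 or more sequences, and 7491 of these also had a mean of at least 5 CPM (reads scaled by the library total) in each of the 30 regenerating groups. A locus was chosen when the mean share of one sequence over 24, 36 and 48 h differed from that over 0, 0.5 and 1 h by at least 10 percentage points, with the same sign in all 3 regeneration series. This left 51 loci. Those whose head and foot shares of that sequence differed by 25 points or more were then left out, which gave the 44. The intended list length of 150 was not reached. The loci were thus chosen by their shares at these 6 times and by the difference between head and foot, and neither comparison is tested.

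PolyA RNA of the strain Jussy was read in 99 directional libraries, 3 biological replicates (lettered A to C) in each of 33 groups, and tissue of 20 to 25 animals was pooled for every library. The tip of the cut body column was sampled at 10 times, the first at 0 h and the last at 48 h, in 3 series of regeneration. The series were basal regeneration from the 50% level (mid-gastric), apical regeneration from the same level, and apical regeneration from the 80% level (decapitation). Homeostatic animals gave head (apical region), foot (basal disk with the lower peduncle) and intact groups. No treatment other than section was given, and no genotype besides the strain is named. Every library pools animals and all cell types of the tissue.

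Hydra is a small freshwater polyp that rebuilds a head or a foot after section of its body column, first closing the wound and later forming the new structure. One gene can give several transcripts through alternative promoters, alternative splicing or alternative 3′ ends, and cells of different types often use different ones. Sequences of one locus in an assembled transcript set can also stand for alleles, close paralogs or incomplete fragments. In bulk tissue, a changed cell composition and a changed choice of transcript within a cell both move a share, and fewer cells of a type and less RNA per cell cannot be told apart.

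The identifiers were matched to the available RefSeq gene names with 0 matches, so functions, tissue markers, positions and nucleotide sequences are not given. Whether the sequences of a locus are forms of 1 gene is not shown by the tables. The loci are therefore called by the rank of their mean shift, and only the first 2 with at least 20 CPM in every regenerating group are given identifiers. Shares are shares of reads, not of molecules, since sequence lengths were not available. In each locus, the sequence with the largest mean gain of share is called the gaining sequence and the one with the largest mean loss the losing sequence.

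Library depth ranged from 26401348 to 54273942 reads (median 33209894). Each library was correlated with the replicates of its group across 10648 loci, and the median of the mean r was 0.988. The lowest values, 0.958 and 0.960, belonged to the replicate A libraries at 0 h of apical and of basal regeneration from the 50% level. Without these 2 libraries the same rule gave 44 loci, of which 41 were among those described. In the 44 loci, a library held at least 108 reads of a locus and a median of 813.

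The sequence that met the rule was the gaining one in 27 loci and the losing one in 17. Its mean shift over the 3 series ranged from 11.0 to 36.0 percentage points, with a median of 17.3. The median was 18.1 points in basal regeneration (range 10.1 to 50.1). It was 17.9 points in apical regeneration from the 50% level (10.2 to 38.8) and 15.5 points from the 80% level (10.2 to 39.9). The last locus inside the minimum shift had 10.1 points in its smallest series and the first outside had 9.99. The head and foot shares of the last locus kept differed by 20.2 points and those of the first left out by 25.4. The lowest group means on either side of the level minimum were 5.19 and 4.59 CPM.

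Between replicates of a group, the share of the sequence that met the rule had a median SD of 4.31 percentage points over the 44 loci, from 2.04 to 19.1. In 37 loci the mean shift was more than 2 times that SD of the locus. The minimum shift of 10 points in every series makes this likely in advance, and the SD is that of single libraries. All 9 late libraries lay beyond all 9 early ones in 17 loci in basal regeneration, 15 in apical regeneration from the 50% level and 16 from the 80% level. Over all 44311 sequences of the eligible loci the shares with that pattern, in either direction, were 0.724, 0.758 and 0.923%, and the rule chose the loci on these same libraries. In 6 loci, those of ranks 2, 3, 9, 21, 22 and 28, this held in all 3 series.

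The most abundant sequence of the locus changed between early and late times in all 3 series in 12 loci, in some of them in 11 and in none in 21. In 9 loci, those of ranks 4, 5, 6, 8, 9, 16, 21, 22 and 28, the losing sequence led at early times and the gaining one at late times in every series. The remaining shifts were changes of proportion, under the same leading sequence or between other sequences. The loci held 2 to 32 sequences with a median of 6, against 4 in the 7491 loci that the rule could have chosen, and 6.82% of them had only 2 sequences, against 20.9%. A locus with more sequences offers more shares to the rule. The gaining and the losing sequence together held a median of 77.0% of the early reads (range 32.2 to 100%).

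The locus of rank 2, loc18304, lost one of its 2 sequences altogether. Its losing sequence is seq51573_loc18304_tr0473199 and its gaining sequence is seq51572_loc18304_vl0046269, so the shares of the pair mirror each other. In basal regeneration the losing share was 65.9, 39.0 and 37.2% at 0 h, 30.2, 27.3 and 1.59% at 2 h, 36.2, 29.5 and 13.4% at 4 h, and 19.9, 5.17 and 4.15% at 8 h in replicates A, B and C. It was 0 in every library from 16 h on. Summed over the 9 libraries of 24 to 48 h, 0 of 13785 locus reads fell on it, which allows a share of up to 0.0218%. Against that limit of 3 reads over the 9 libraries, the sequence was at least 1750-fold higher at 0 to 1 h, where it had 5234 of 13376 locus reads (39.1%).

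The same loss came later in apical regeneration from the 50% level. The losing share there was 50.7, 50.5 and 32.7% at 0 h, 34.3, 33.7 and 21.3% at 8 h, 17.7, 9.74 and 9.50% at 16 h, and 9.01, 4.52 and 0% at 24 h. All 3 libraries at 16 h still held the sequence, unlike those of the other series, and all 6 libraries of 36 and 48 h had 0 of 10038 locus reads, a limit of 0.0299%. From the 80% level the share was 29.4, 38.5 and 20.0% at 0 h and 26.0, 6.01 and 5.52% at 8 h, then 0 of 3369 locus reads at 16 h (limit 0.0890%) and 0 of 13817 from 24 to 48 h. Heads had 0 of 5289 and feet 0 of 3919 locus reads, while intact animals had 19 of 3503 (0.542%), from 2 of the 3 libraries. These limits cover counting error only. The level of the whole locus stayed between 34.6 and 54.2 CPM in all 30 regenerating group means. In the basal series the gaining sequence had 25.4 CPM at 0 h and 43.7 CPM at 48 h.

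The locus of rank 3, loc18645, moved early and by addition. Its gaining sequence is seq52835_loc18645_tr0506667 and its losing sequence is seq52827_loc18645_vl0046736, 2 of 23 sequences. In basal regeneration the gaining share was 19.1, 33.9 and 10.8% at 0 h, 52.2, 57.0 and 46.7% at 2 h and 64.5, 64.0 and 61.1% at 4 h. From the 50% level, apical tips had 28.9, 28.7 and 21.3% at 0 h and 62.9, 63.7 and 61.3% at 4 h. From the 80% level they had 22.4, 47.1 and 15.8% at 0 h and 62.6, 65.0 and 60.0% at 4 h. The 9 libraries at 4 h were thus all above the 9 at 0 h. At 48 h the gaining share was 46.3, 45.7 and 49.1% in the basal series, below all 3 libraries of 4 h, and 60.6, 56.4 and 58.8% and 59.4, 60.9 and 62.2% in the 50% and 80% apical series.

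The level of the losing sequence of this locus was 4.59 CPM at 0 h and 4.32 CPM at 4 h in basal regeneration, while that of the gaining sequence went from 7.15 to 144 CPM. The corresponding levels of the gaining sequence were 11.0 and 121 CPM in apical regeneration from the 50% level and 12.1 and 105 CPM from the 80% level. The locus as a whole went from 31.5 to 228 CPM, from 41.4 to 193 CPM and from 36.8 to 168 CPM in the 3 series in the same order. The losing share went from 15.1% ± 4.89 to 1.88% ± 0.236 (SD, n = 3) in the basal series. Homeostatic gaining shares were 61.4% ± 2.22 in head, 50.9% ± 3.25 in foot and 48.1% ± 3.52 in intact animals (SD, n = 3).

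**Figure D1:**
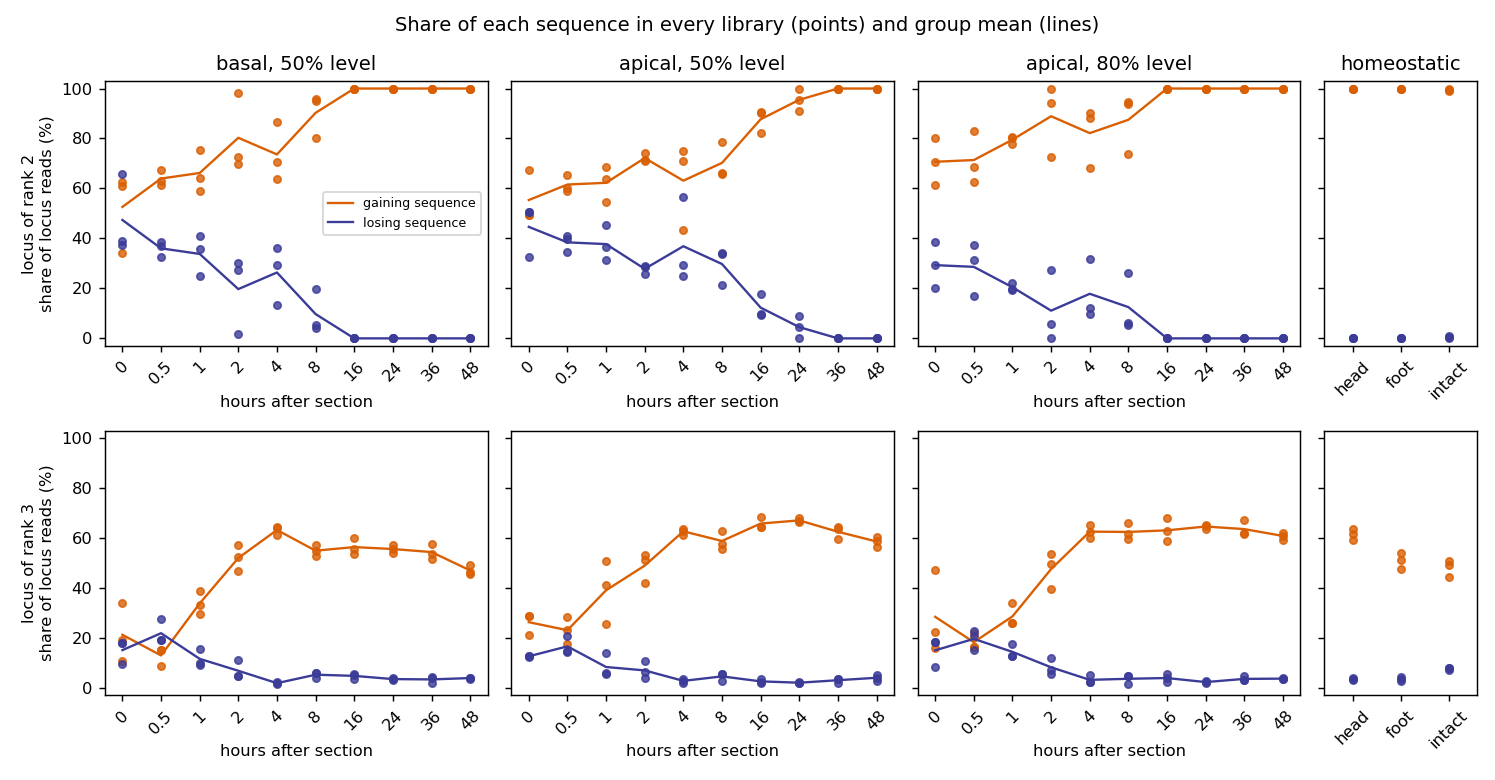
Share of the locus reads (%) of the gaining (orange) and losing (blue) sequence in the loci of rank 2 (upper row) and rank 3 (lower row) against hours after section, and in homeostatic head, foot and intact animals. Points are libraries and lines are means of 3. The losing sequence of rank 2 is at 0 from 16 h in the basal and the 80% apical series and from 36 h in the 50% apical series, and the gaining sequence of rank 3 lies between 60.0 and 65.0% in all libraries at 4 h.

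The largest mean shift, that of rank 1, was late in every series. Its gaining share in basal regeneration was 10.9, 13.4 and 7.12% at 16 h, 47.5, 53.1 and 31.1% at 24 h and 66.6, 59.2 and 65.3% at 48 h. From the 80% level it was 10.5, 7.62 and 2.30% at 16 h, 45.5, 18.3 and 19.4% at 24 h and 58.9, 63.7 and 66.0% at 48 h. From the 50% level the apical tips were still at 9.64, 4.74 and 5.39% at 24 h, reached 29.7, 25.1 and 20.0% at 36 h and 59.2, 47.6 and 43.4% at 48 h. The 50% apical series lagged at 24 h, where its 3 libraries lay below the other 6. This is a description of values the rule used, with no test. The locus is a low one, with 150 to 313 reads per library up to 8 h in the basal series, and its total went from 7.05 to 19.7 CPM between 0 and 48 h there.

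The leading sequence also changed in a locus whose total moved little. In the locus of rank 22, with log2 ratios of late to early totals of 0.20, 0.27 and 0.07 in the basal, 50% apical and 80% apical series, the gaining share in basal regeneration went from 23.7, 25.9 and 31.4% at 0 h through 39.3, 38.9 and 39.8% at 16 h to 57.7, 64.0 and 54.1% at 48 h. In the 50% apical series it was 49.4, 45.9 and 43.6% at 16 h, 54.0, 53.0 and 51.7% at 24 h and 42.4, 45.1 and 50.4% at 48 h. At 48 h the basal libraries were above these apical ones, which were lower than at 24 h. In the locus of rank 9 the total was higher late, with 34.5 CPM at 0 h and 81.0 CPM at 48 h in basal regeneration. Its losing sequence was at 18.7 and 17.1 CPM at these times. The losing share there was 49.3, 49.9 and 51.0% at 16 h and 30.9, 23.1 and 36.4% at 24 h. Its mean was 20.6% at 36 h and 21.7% at 48 h, so part of the fall came after 24 h. In homeostatic tissue the losing share was 9.59% ± 1.65 in foot, 12.6% ± 1.21 in head and 22.6% ± 3.31 in intact animals (SD, n = 3).

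The gaining sequence of rank 11 was seen mainly in apical tissue. In apical regeneration from the 50% level this sequence was at 0.371, 0 and 0.156% at 2 h, 5.22, 2.98 and 2.46% at 16 h and 24.4, 41.1 and 34.4% at 36 h. From the 80% level it was at 6.42, 4.23 and 3.19% at 16 h and 6.84, 8.92 and 13.0% at 36 h. In the basal series no library had more than 1.64%, feet had 0 reads in all 3 libraries, and heads had 4.71, 1.90 and 6.09%. The losing sequence of the locus had lower shares late in all 3 series, going from 64.3, 61.3 and 62.3% of the reads at early times to 47.8, 35.4 and 45.7% at late times in the basal, 50% apical and 80% apical series, which is why the locus met the rule.

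The other loci with at least 20 CPM in every regenerating group were those of ranks 4, 7, 10, 18, 21, 26 and 29 among the first 12 of that level, besides the ones already named. Of these, rank 26 was the most abundant, with a lowest group mean of 137 CPM. Its gaining share went from 36.3 to 49.2%, from 34.8 to 58.1% and from 39.1 to 53.9% in the basal, 50% apical and 80% apical series. That of rank 10 went from 40.7 to 71.4%, from 39.4 to 60.3% and from 45.0 to 56.4%. In the locus of rank 29, with 28 sequences, it went from 27.9 to 39.3%, from 31.6 to 51.4% and from 34.0 to 52.1%. The losing share of rank 21 went from between 42.2 and 43.5% at early times to between 23.7 and 26.1%.

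The time at which a share moved varied between loci. With the early mean set to 0 and the late mean to 100%, the median locus in basal regeneration stood at 18.1, 30.1, 56.8 and 91.5% of its shift after 4, 8, 16 and 24 h. The medians for these times were 8.14, 20.5, 59.7 and 88.7% in apical regeneration from the 50% level and 15.9, 31.6, 64.6 and 87.0% from the 80% level. In 4 loci, ranks 3, 6, 27 and 40, more than 50% of the shift was present at 4 h in all 3 series. For rank 27 in the basal series, the early mean was raised by a passing rise. Its losing share there was 22.6, 27.1 and 22.1% at 0 h, 47.9, 46.3 and 52.5% at 1 h and 25.0, 27.3 and 24.1% at 24 h. In both apical series all its libraries at 24 h lay below those at 0 h. In 9 loci, ranks 2, 7, 10, 14, 17, 18, 31, 36 and 39, the 50% mark was passed after 4 h and by 16 h in all 3 series. In 11 loci, ranks 1, 4, 5, 9, 12, 16, 19, 24, 25, 38 and 44, it had not been passed at 16 h in any series. The remaining loci fell into different classes in different series.

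**Figure D2:**
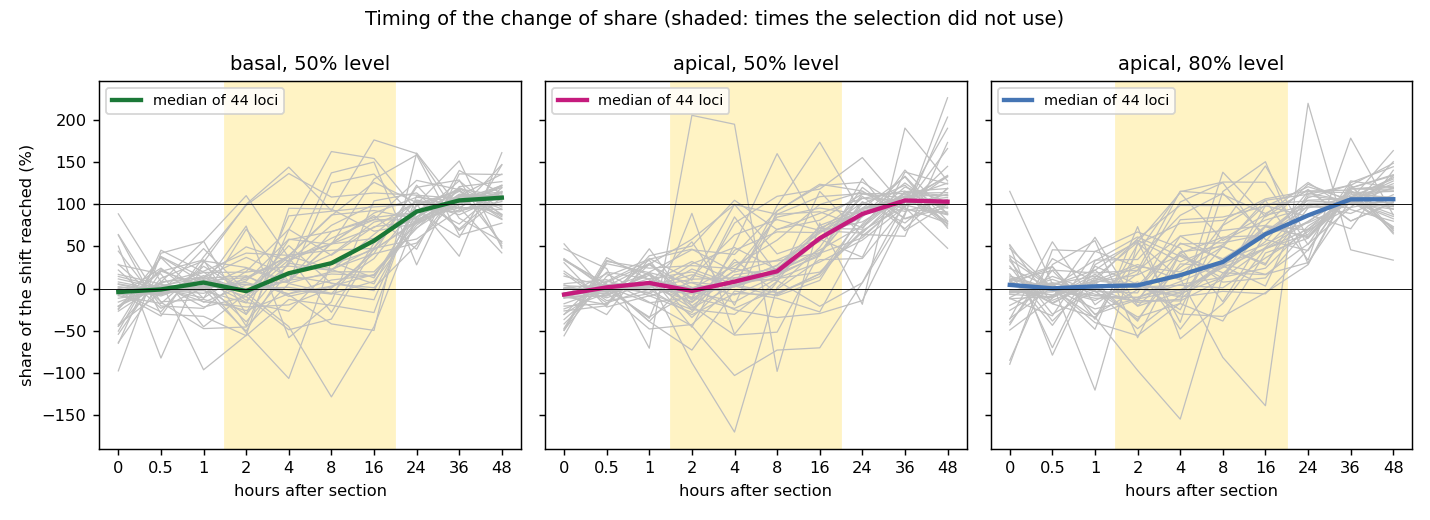
Share of the early-to-late shift reached (%) against hours after section in the 3 series, where 0 is the mean of 0, 0.5 and 1 h and 100 the mean of 24, 36 and 48 h. Each grey line is a locus, the thick line is the median of the 44 loci, and the shaded times (2 to 16 h) were not used to choose the loci. The medians lie between 8.14 and 18.1% at 4 h and between 56.8 and 64.6% at 16 h.

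The libraries of 2, 4, 8 and 16 h did not enter the rule, and they allow a test of the same measure. Usage of a sequence relative to its locus at 8 and 16 h was compared with that at 2 and 4 h, 6 libraries against 6, by edgeR's quasi-likelihood test for differential usage on the 36 libraries of these times. A call is a Benjamini-Hochberg adjusted p under 0.05 over all 39159 sequences tested. In basal regeneration, 0.299% of all sequences were called higher and 0.421% lower. Of the 44 gaining sequences, 0 were called higher, 9 had an unadjusted p under 0.05 in that direction, and limma called 10 (0.733% of all). Of the losing ones, 1 was called lower, 8 had an unadjusted p under 0.05, and limma called 11 (0.817% of all).

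In apical regeneration from the 50% level, 3 gaining sequences were called higher (all sequences: 0.25%) and 0 losing ones lower (all: 0.335%). For the losing sequences, 7 had an unadjusted p under 0.05 and limma called 5 (all: 0.424%). Limma called 8 of the gaining ones (all: 0.437%). From the 80% level, 1 gaining sequence was called higher (all: 0.181%) and 1 losing sequence lower (all: 0.212%), and limma called 5 and 2 (all: 0.225 and 0.255%). Among the sequences of the 7491 eligible loci alone, edgeR called between 0.209 and 0.355% higher and between 0.249 and 0.474% lower in the 3 series. None of the 44 gaining sequences was called lower and none of the losing ones higher in any series by either tool. At an unadjusted p under 0.05, edgeR had 0, 1 and 1 gaining sequences lower and 0 losing ones higher in the basal, 50% apical and 80% apical series. The shares of all sequences at an unadjusted p under 0.05 are not given. The calls belonged to 4 loci, of which 2 were called in 2 series and 0 in all 3.

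The locus of rank 2 was called through its losing sequence. The mean share of that sequence went from 23.0% at 2 and 4 h to 4.86% at 8 and 16 h in basal regeneration (relative usage -6.29 on the log2 scale, SE 0.974, adjusted p = 8.13e-05) and from 14.5 to 6.25% from the 80% level (-5.23, SE 1.06, adjusted p = 0.00641). These log2 values depend on libraries at 0 and are not fold estimates. The call was lost without replicate B in the basal series (adjusted p = 0.0910), without replicate A (0.141) or B (0.264) in the 80% apical series, and with limma in both (0.316 and 0.830). The shares of the 6 earlier and 6 later libraries overlapped in both series. An exact two-sided permutation test of the gaining share itself, 6 libraries against 6, gave a difference of 18.2 points with p = 0.0216 in the basal series, which was 0.130 after adjustment over the 6 tests of ranks 2 and 3, and the smallest p that the 924 permutations can give is 0.00216.

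In the 50% apical series, the change of rank 2 was 11.3 points (exact permutation p = 0.119), and in the 80% apical series it was 8.22 points (p = 0.212). For rank 3, whose shift was nearly over by 4 h, the differences were -1.96, 6.49 and 7.69 points in the basal, 50% apical and 80% apical series, with exact permutation p = 0.537, 0.134 and 0.0974. A p that misses the threshold with 6 libraries a side does not show that these shares stayed level.

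In the 50% apical series the gaining sequence of rank 7 had 23.8, 20.7 and 26.4% of the reads at 2 h and 14.4, 19.3 and 34.2% at 4 h. It had 37.1, 44.7 and 43.0% at 8 h and 54.4, 60.6 and 54.4% at 16 h. All 6 later libraries were above all 6 earlier ones (log2 relative usage 1.03, SE 0.268, adjusted p = 0.0419), although the call was lost without any 1 of the replicates (adjusted p 0.103 to 0.737) and with 16 h against 2 h alone (0.204). The same sequence went from 22.8 to 44.8% in the basal series and from 20.9 to 42.8% from the 80% level without a call.

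The gaining sequence of rank 43 went from 9.21 to 26.0% in the same series (log2 relative usage 1.75, SE 0.403, adjusted p = 0.0307) and lost its call without replicate A (0.324) or B (0.388). With 16 h against 2 h alone its log2 relative usage was 1.07 (adjusted p = 1.00). Its share at 4 h, 0, 6.55 and 7.63%, was below that at 0 h, 12.9, 26.3 and 20.5%. Low values at 4 h also stood in the other series, with 4.57, 5.58 and 4.84% in basal tips at 4 h and 1.82, 8.94 and 9.54% from the 80% level. The gaining sequence of rank 11 went from 0.152 to 2.13% from the 50% level (log2 3.34, SE 0.610, adjusted p = 0.00958) and from 0.265 to 2.93% from the 80% level (log2 3.11, SE 0.578, adjusted p = 0.0141). Both calls were lost without replicate A (0.196 and 0.162) or B (0.193 and 0.360), and limma made both (0.0156 and 0.00356).

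Calls apart, the sequence that met the rule moved in the direction of its shift between these times in 37 of 44 loci in the basal series, 38 in the 50% apical and 38 in the 80% apical series, in 31 loci in all 3 and in 2 in none. The median differences were 6.33, 5.91 and 4.79 percentage points. They ranged from -9.79 to 22.4, from -31.4 to 25.9 and from -24.8 to 21.9 points, where a negative value is against the shift. Same-letter libraries of these times moved together between series, so the same direction in all 3 does not come from independent samples. The share of all eligible sequences that moved in the direction of their own early-to-late difference is not given beside these counts. Libraries of 8 and 16 h did not overlap with those of 2 and 4 h for 6, 6 and 4 gaining sequences, all above, where 0.422, 0.334 and 0.246% of the 44311 sequences of eligible loci had that pattern. For the losing sequences, 4, 5 and 0 lay wholly below, where the shares of all were 0.648, 0.49 and 0.269%. No gaining or losing sequence was separated in the opposite direction.

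**Figure D3:**
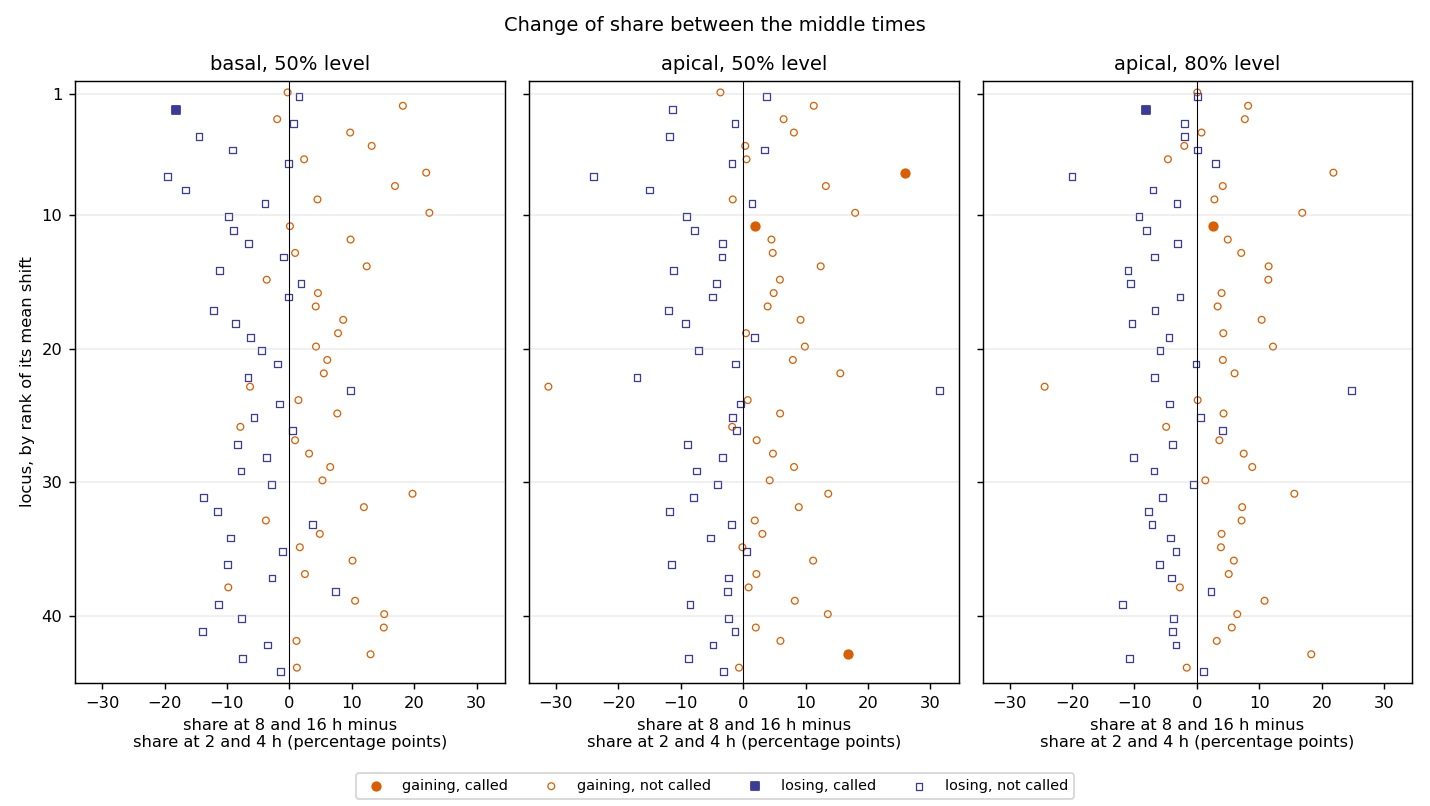
Share at 8 and 16 h minus share at 2 and 4 h (percentage points, means of 6 libraries each) for the gaining (circles) and losing (squares) sequence of each locus, ordered by the rank of its mean shift, in the 3 series. Filled symbols passed an adjusted p of 0.05 in edgeR. Most gaining sequences lie right of 0 and most losing ones left, and the filled symbols are those of ranks 2, 7, 11 and 43.

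The change was compared between the 50% apical and the basal series and between the apical series. The fit took no account of the replicate letters, although same-letter libraries moved together between series. Call counts of a fit with paired letters are not given here. By the unpaired fit, rank 2 was the only one of the 44 loci with a call in either comparison. Its losing share went from 32.4 to 21.0% in the 50% apical series against 23.0 to 4.86% in the basal series, a smaller fall by 6.86 points, and relative usage differed by 5.55 on the log2 scale (SE 1.23, edgeR adjusted p = 0.0310). In this comparison 0.107% of all sequences were called higher and 0.105% lower. The call was lost without replicate A (0.0933) or B (0.802), and limma gave an adjusted p of 1.00. For apical against basal change, edgeR called 0 gaining sequences, 1 had an unadjusted p under 0.05, and limma called 0 (all: 0.0281% higher, 0.0332% lower). For the 50% against the 80% apical change it called 0 gaining and 0 losing sequences (all: 0.0792% higher, 0.11% lower), with 0 and 1 at an unadjusted p under 0.05 and 0 by limma (all: 0.00511% higher, 0.0128% lower).

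Shifts of share stood beside locus totals that were higher, lower or similar at late times. Between early and late times, 28 loci stayed within 2-fold in all 3 series. In 4 loci, ranks 1, 3, 5 and 38, the late total was at least 2-fold higher in each series, and in 1 locus, rank 25, it was at least 2-fold lower. The median log2 ratio of the locus totals was 0.35, 0.42 and 0.45 in the basal, 50% apical and 80% apical series, against -0.04, 0.03 and 0.03 over the 7491 eligible loci. The gaining sequences had median log2 ratios of 1.08, 1.29 and 1.05 and the losing ones -0.29, -0.36 and -0.23, on CPM with a pseudocount of 0.1. These are values from the times that the rule used.

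In 22 loci the gaining sequence was higher and the losing one lower at late times in all 3 series. In 11 loci, among them ranks 1, 5 and 10, both were higher in all 3 series, the gaining one by more. In 3 loci, ranks 18, 25 and 41, both were lower, the losing one by more. Rank 25 is the clearest of these. Between 0 and 48 h in the 50% apical series its losing sequence went from 12.9 to 1.05 CPM, while the gaining one went from 9.87 to 4.76 CPM.

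**Figure D4:**
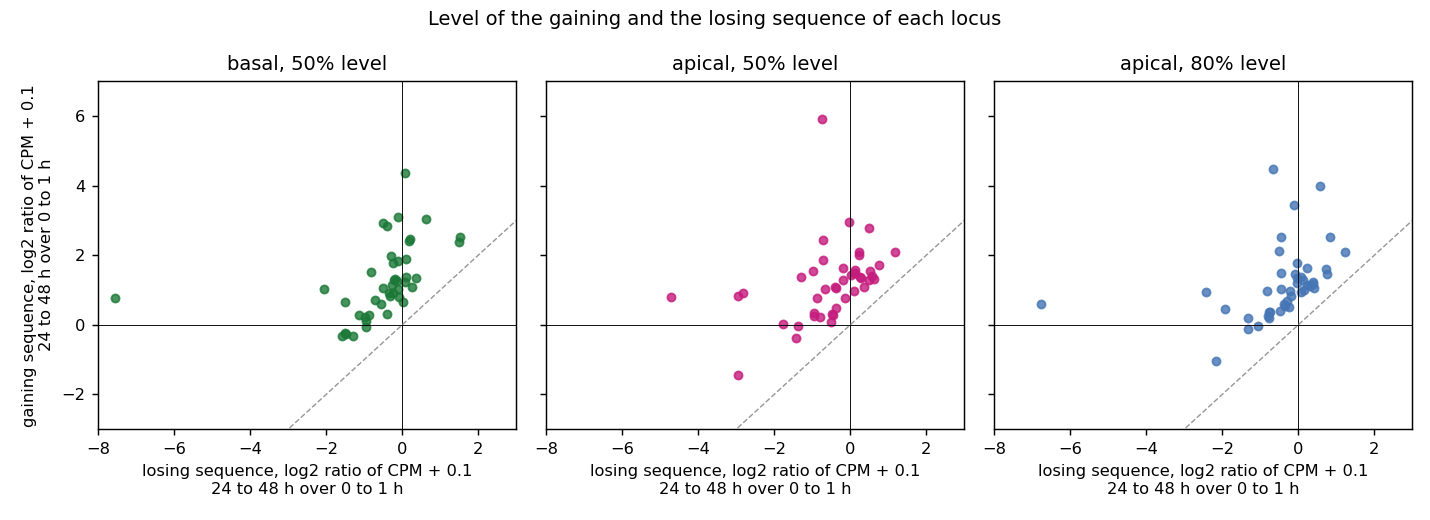
Log2 ratio of the level (CPM + 0.1) at 24 to 48 h over 0 to 1 h for the gaining sequence (vertical axis) against the losing sequence (horizontal axis) of each locus in the 3 series. Each point is a locus and the dashed line marks equal ratios. Points in the upper left were higher late in the gaining and lower in the losing sequence, those in the upper right were higher in both, and the point farthest left in each panel is rank 2, whose losing sequence had 0 reads in most or all late libraries.

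At the middle times, which the rule did not use, locus totals could be tested. In basal regeneration edgeR called 12 of the 44 loci higher and 6 lower at 8 and 16 h than at 2 and 4 h, against 6.85 and 6.78% of all 19335 loci tested. In the 50% apical series it called 11 higher and 4 lower (all: 5.01 and 5%), and in the 80% apical series 10 higher and 0 lower (all: 3.5 and 3.49%). Among the 7491 eligible loci alone, 9.57 and 4.67% were called higher and lower in the basal series, 6.45 and 4.3% in the 50% apical series and 3.79 and 4.42% in the 80% apical series. In that last series 5 of the 44 loci were lower at an unadjusted p under 0.05 and DESeq2 called 0 lower, while leaving out replicate A, B or C gave 6, 6 and 7 higher and 2, 1 and 0 lower. Without replicate B the counts of the basal series were 5 higher and 1 lower, and without replicate C they were 6 and 2. In the 50% apical series they were 8 and 1 without replicate B and 7 and 2 without C.

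In homeostatic tissue the shares of most of the 44 loci lay nearer to late than to early tips, and in head mostly beyond the late ones. On the scale from the early mean (0) to the late mean (100%), the median locus stood at 132% in head, 104% in foot and 64.4% in intact animals. The share was nearer to its late than to its early value in 40 loci in head, 37 in foot and 28 in intact animals. All 3 tissues were nearer to late in 24 loci and none was nearer to early in all 3. In head, 33 loci lay beyond the late mean, and in foot 24. The loci nearer to early in head were ranks 23, 28, 35 and 42, and those in foot were ranks 6, 11, 20, 23, 26, 32 and 41. The rule left out loci whose head and foot differed widely, which makes head and foot alike in this list. The early and late means of the scale are also those that chose the loci. Counts for other eligible loci are not given.

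Head, foot and intact animals were each compared with the 18 tip libraries of 2 and 4 h, a comparison added after these shares had been seen. In head, edgeR called 18 of the 44 gaining sequences higher than in tips (all sequences: 5.18%) and 20 losing ones lower (all: 3.43%), in 25 loci. In foot it called 15 gaining ones higher (all: 2.46%) and 13 losing ones lower (all: 1.35%), in 19 loci. In intact animals it called 6 gaining ones higher (all: 1.5%) and 4 losing ones lower (all: 0.478%), in 8 loci. It called 0 loci in the opposite direction in any of these. At an unadjusted p under 0.05, 0, 2 and 1 gaining sequences were lower and 0, 0 and 3 losing ones higher in head, foot and intact animals. Limma called 32, 27 and 12 gaining sequences higher (all: 10.6, 5.89 and 2.38%) and 0, 1 and 2 lower, and 33, 30 and 14 losing ones lower (all: 9.11, 4.39 and 1.48%) and 1, 0 and 2 higher. The 3 comparisons share the tip libraries. Same-letter tip libraries of one time moved together between series, so the 18 are not independent samples. The fit took no account of this.

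Head and foot entered the choice of the loci through the limit on their difference, so the same calls were also counted, as an addition made after seeing the data, over the 51 loci that the shift alone chose. Of their gaining sequences, 22 were higher and 1 lower in head than in tips, 17 higher and 0 lower in foot and 8 higher and 0 lower in intact animals, by edgeR. Of the losing ones, 25, 13 and 6 were lower and 0 higher in head, foot and intact animals. Without replicate A, B or C the losing calls were 25, 23 and 24 in head, 8, 8 and 11 in foot and 2, 1 and 2 in intact animals. For the gaining sequences lower in foot and intact animals, 3 and 1 had an unadjusted p under 0.05 and limma called 3 and 2. For the losing ones higher, 0, 0 and 3 had an unadjusted p under 0.05 and limma called 1, 0 and 2.

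Rank 1 had the largest difference in all 3 tissues. Its gaining share was 7.11% in the 18 tip libraries, against 67.9, 66.3 and 63.7% in head (adjusted p = 3.72e-18), 73.1, 63.0 and 55.0% in foot (4.74e-17) and 58.9, 54.3 and 58.1% in intact animals (1.91e-15). Every homeostatic library was far above every tip library of 2 and 4 h. Its level differed between these tissues, with a locus total of 91.4 CPM in head, 20.7 in foot and 27.9 in intact animals. The losing share of rank 4 was 51.7% in tips and 2.15, 1.63 and 6.24% in foot (adjusted p = 1.48e-18). That of rank 19 was 91.4% in tips and 45.9, 36.3 and 36.0% in head (adjusted p = 0.000144).

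Rank 5 had gaining shares of 21.1% in tips, 74.1, 72.6 and 68.0% in head (adjusted p = 1.32e-13) and 71.2, 67.0 and 56.9% in intact animals (3.98e-11). The losing share of rank 9 was 52.0% in tips and 25.4, 18.9 and 23.4% in intact animals (adjusted p = 5.28e-06). In both loci intact animals thus lay on the side of the late tips. Intact animals hold head and foot tissue together with the body column, so their libraries pool all regions. Their shares need not lie between those of the parts sampled here. In rank 2 the mean losing share was 47.4, 44.6 and 29.3% in basal, 50% apical and 80% apical tips at 0 h. It was 0% in head and foot and 0.542% in intact animals. What sets intact animals apart from tips at 0 h was not tested.

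Between homeostatic tissues, 43 of the 44 gaining and 43 of the 44 losing sequences had enough reads to be tested. Head against intact animals gave 4 gaining sequences called higher (all: 2.13%) and 14 losing ones called lower (all: 2.17%), in 14 loci, and 0 in the opposite direction, where no gaining sequence was lower and no losing one higher at an unadjusted p under 0.05 and limma also called 0. Limma called 17 higher and 19 lower (all: 4.46 and 4.25%). Foot against intact animals gave 3 gaining sequences called higher and 1 lower (all: 1.4 and 1.58%) and 7 losing ones lower, so 9 loci differed towards the late shares and 1 away from them. Limma called 15 gaining ones higher and 1 lower, and 14 losing ones lower and 1 higher (all: 2.33% higher, 2.48% lower). Over the 51 loci that the shift alone chose, of which 50 gaining and 50 losing sequences were tested, 6 gaining ones were higher and 19 losing ones lower in head than in intact animals, and 3 and 7 in foot. Without replicate A, B or C the gaining calls were 3, 4 and 2 in head and 1, 3 and 3 in foot, and the losing ones 10, 14 and 6 in head and 5, 5 and 6 in foot.

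The locus of rank 40 separated intact animals from both ends. Its gaining share was 17.0, 16.2 and 16.8% in intact animals, 54.8, 48.9 and 53.0% in head (log2 relative usage 1.67, SE 0.262, adjusted p = 3.72e-05) and 54.5, 45.6 and 48.5% in foot. Rank 19 had 21.7, 27.2 and 22.7% in intact animals and 50.1, 54.3 and 60.5% in head (log2 1.20, SE 0.251, adjusted p = 0.00274). Rank 25 had 33.6, 34.2 and 28.8% in intact animals, 59.5, 65.5 and 55.0% in head (adjusted p = 0.0327) and 74.5, 82.2 and 64.7% in foot (0.00119). In ranks 40 and 25 the libraries of intact animals did not overlap with those of head or foot, and in rank 19 they did not overlap with those of head.

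The locus of rank 18, with only 2 sequences, had a losing share of 53.8, 55.2 and 32.5% in intact animals and 7.23, 5.77 and 3.49% in foot (log2 relative usage -3.08, SE 0.435, edgeR adjusted p = 0.000377). Its gaining share thus reached 94.5% ± 1.88 (SD, n = 3) in foot, above the late mean of every series, which was at most 75.2%. Rank 12 had gaining shares of 3.09, 10.3 and 21.8% in intact animals and 49.3, 46.7 and 42.1% in foot (adjusted p = 0.00466).

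**Figure D5:**
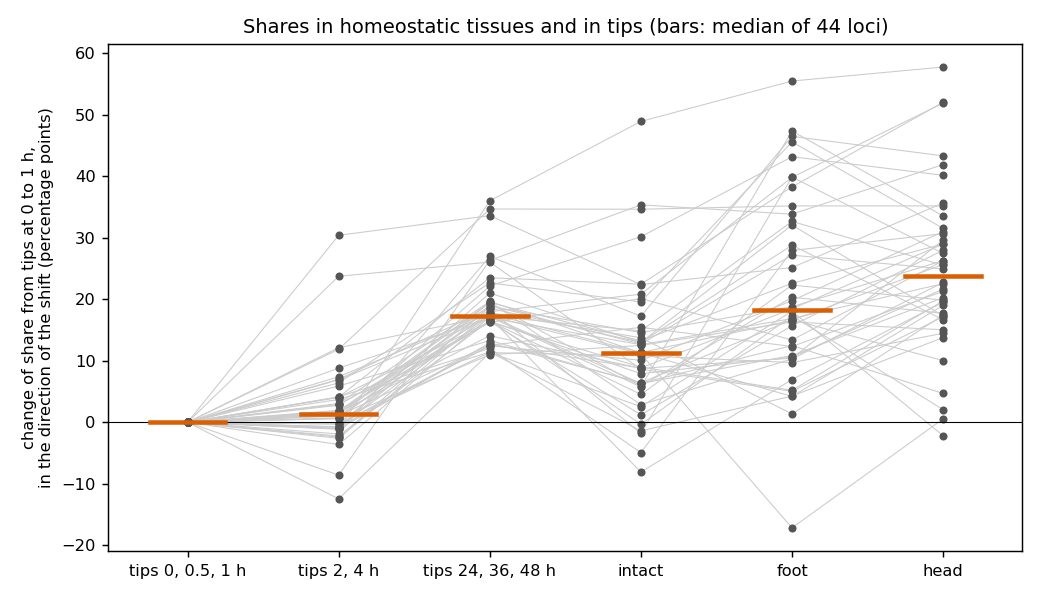
Change of the share from its mean in tips at 0 to 1 h, in the direction of the shift (percentage points), for tips at 2 and 4 h, tips at 24 to 48 h and homeostatic intact animals, foot and head. Points joined by grey lines are the 44 loci (means over libraries) and bars are medians. In all, 40 loci in head, 37 in foot and 28 in intact animals lie nearer to the late tips than to the early ones.

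Some loci varied between replicates as much as between times. In 5 loci, ranks 20, 23, 30, 31 and 41, a group had 0 reads of the sequence that met the rule in one replicate and at least 20% in another. Rank 23 was the extreme, with a median SD of 19.1 points, and its sequences replaced each other between replicates. Its gaining share in basal regeneration was 49.8, 0 and 0% at 8 h and 71.0, 0 and 9.44% at 48 h, on locus totals of 422, 514 and 456 reads at 8 h. Its shift, 17.3 points, is below that SD.

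Same-letter libraries of one time also moved together between series. Over the middle times, the deviations of shares from their group means correlated between the basal and the 50% apical series with a median r of 0.663 over 12 same-letter pairs, and between the apical series with 0.605. Rank 18 shows it: at 16 h its gaining share was 84.3, 78.2 and 88.6% in the replicate A libraries of the basal, 50% apical and 80% apical series, and 51.8, 50.4 and 58.5% in the replicate C libraries. In each series these 2 libraries were further apart than the mean shift of the locus, 18.4 points. Agreement between series at one time is for this reason not agreement between independent samples, and what the letters share was not tested.

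The choice of loci depended on which replicates entered it. Without replicate A, B or C in turn, the rule gave 46, 47 and 46 loci, of which 34, 37 and 34 were among the 44. In the libraries of the letter left out, which that selection had not used, 45, 44 and 44 of these loci had the same sign of shift in all 3 series, and 28, 30 and 27 reached 10 points in all 3. Same-letter libraries moved together between series, so the 3 series of a letter are not independent of each other. The share of all eligible loci with that pattern is not given. The median shift in the left-out letter was 16.3, 16.8 and 15.6 points, against 17.4, 17.1 and 18.0 points in the letters that chose the loci.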

How the data were processed

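The authors deposited whole-number read counts for 79774 sequences in 99 libraries, and a normalized signal made by the authors for 40479 of them, used for one alternative. The submitters' processing notes name cutadapt 1.11, Salmon 0.7.2 and DESeq2, with no roles. Reference transcriptome and filters are not given in the sources used here. Where a program divides reads among similar sequences by estimation, shares of such sequences depend on it. The members, lists and tests were chosen with earlier results of these data known.

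CPM used the library total of the count table. Sequences were filtered with filterByExpr, scaled by TMM and fitted with edgeR 4.0.16 in R 4.3.3, with a coefficient per group, and usage was tested with diffSpliceDGE on the deposited counts. Fits used 36 libraries (2, 4, 8 and 16 h), 9 homeostatic libraries, or 27 libraries (18 tips of 2 and 4 h with the homeostatic ones). Benjamini-Hochberg adjustment ran over all sequences or loci tested. Limma 3.58.1 (voom with diffSplice) and, for locus totals, DESeq2 1.42.0 were alternatives. The usage and the locus total test were run on simulated data for the basal comparison of 8 and 16 h with 2 and 4 h, and the other fits were not simulated. In usage, 28 of 100 sequences raised 2-fold and 80 of 100 raised 4-fold were called. There were 18 false calls among 35719 sequences of other loci. At the spread that was simulated, the usage test thus missed most 2-fold changes. Beside the 28 and 80 correct calls, the 18 false ones were a larger part than the adjusted p threshold of a call is meant to allow. Calls on further sequences of the changed loci are not given, so the false part of all calls is not known. The 2 loci named by identifier have the largest mean shift among those with at least 20 CPM in every regenerating group. Other loci were described by rank, among them the next 10 of that level and the 3 largest differences among those called in each comparison, and further ones chosen after their values were seen. Replicate depth was 26401348 to 54273942 reads.

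Replicate letters A, B and C were checked as pairs. Across series at the same time, deviations of same-letter libraries correlated above 0.1 in 12 of 12 pairs in each comparison, so the letters pair the samples there, and the fits with a replicate block kept the interaction call. Within a series across times only 5, 6 and 6 of 12 did. Between head and intact animals 2 of 3 did, and between foot and intact animals 1 of 3. The number of columns of other samples was 0.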

Additional observations from a re-analysis of the deposited data

Results flagged for a closer look

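The losing sequence of the locus of rank 2 changed differently between 2 to 4 h and 8 to 16 h in apical and basal regeneration from the 50% level, by a test of the difference itself. Its share fell by 6.86 percentage points less in the apical series. The edgeR adjusted p was 0.0310, 0.000952 with a replicate block and 0.0295 with a block within each time, and 0.0933, 0.802 and 0.0329 without replicate A, B and C. Limma gave 1.00. In replicate C of the basal series at 2 h the share was 1.59%, against 30.2 and 27.3% in A and B. At 16 h it was 0 in all basal libraries and 9.50 to 17.7% in the apical ones. What the difference rests on was not tested.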

How the results depend on the processing

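Over 23 results and 188 alternative values, 142 kept their direction and side of the threshold. The number of gaining sequences called higher at the middle times (0, 3 and 1 in the basal, 50% apical and 80% apical series) was 10, 8 and 5 with limma, 3, 5 and 4 with a replicate block within each time, 4, 3 and 3 with a plain replicate block, and 1, 3 and 2 with all 99 libraries in the fit. For losing sequences called lower (1, 0 and 1), limma gave 11, 5 and 2, the block within each time 5, 4 and 5, and the plain block 2, 0 and 1. With the block within each time, a contrast within a series is the fitted change in replicate A. Its counts, here and for locus totals, thus measure a different quantity from the main fit. With 16 h against 2 h alone, the 50% apical series had 1 gaining and 1 losing call. Leaving out each replicate gave gaining calls of 0 to 0, 0 to 2 and 0 to 1 and losing calls of 0 to 1, 0 to 0 and 0 to 1. Locus totals called (18, 15 and 10) ranged from 6 to 12, 9 to 14 and 7 to 8 without one replicate, and the block within each time gave 28 in the 50% apical and 22 in the 80% apical series. Gaining sequences called with limma were 17 in head and 16 in foot against intact animals (4 and 4 with edgeR), where leaving out a replicate gave 2 to 2 and 1 to 3. Against tips, limma called 32, 28 and 14 in head, foot and intact animals (18, 15 and 6 with edgeR), and leaving out a replicate gave 13 to 13, 11 to 12 and 5 to 6. The cause of these differences was not tested.

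The share difference of rank 2 in the basal series, 18.2 points, was 19.7 with 16 h against 2 h (exact permutation p = 0.1) and 14.4 to 24.6 without one replicate, with p of 0.0857 without A and 0.200 without B, where fewer libraries limit the p. For rank 3 in the basal series, -1.96 points turned to 4.37 with 16 h against 2 h and ranged from -3.07 to 0.218 without one replicate. The letters gave no pairs within a series, so block results there describe shared numbers only. The rule itself gave 50 loci with pooled counts, 42 with the authors' normalized table, 30 with a minimum of 10 CPM, 43 with the head-foot limit on any sequence and 44 to 47 without single libraries or replicates. Shares of loci with few reads, 108 at the lowest, have the widest counting error.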
